A study of Mus musculus with 6 samples.

Results

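The glucose-sensing and triggering genes of the insulin secretion pathway were compared between islets of FXR+/+ and FXR-/- mice. The 6 genes were taken from the deposited gene counts by symbol, and are *Slc2a2* (NCBI gene 20526), *G6pc2* (14378), *Kcnj11* (16514), *Abcc8* (20927), *Cacna1c* (12288) and *Cacna1d* (12289). All 6 were found among the 19342 genes counted, and all 6 were among the 14619 genes that passed the filter on low counts. FXR (*Nr1h4*) is a nuclear receptor activated by bile acids. The wild-type (FXR+/+) and FXR knockout (FXR-/-) groups (the latter mice C57Bl/6) each had 3 poly(A)-enriched RNA-seq libraries of islets isolated from the pancreas, 1 from females and 2 from males, all at 3 months of age, with no treatment named beyond the isolation of the islets. The deletion of *Nr1h4* is not described further in the labels. The libraries are called female 1, male 1 and male 2. Nothing in the labels tells if islets of several mice were pooled in a library, so the p-values measure the spread between these libraries only.

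A beta cell turns blood glucose into an electrical signal. Glucose enters through GLUT2, the transporter encoded by *Slc2a2*, and is phosphorylated, while the islet glucose-6-phosphatase encoded by *G6pc2* removes the phosphate again. The ATP made from glucose closes the ATP-sensitive potassium (KATP) channel, which is built in equal numbers from the pore Kir6.2 (*Kcnj11*) and the sulfonylurea receptor SUR1 (*Abcc8*). Closure depolarizes the membrane, and calcium then enters through voltage-gated channels, among them the L-type pores CaV1.2 (*Cacna1c*) and CaV1.3 (*Cacna1d*), and triggers the release of insulin granules. Inherited changes in *KCNJ11* and *ABCC8* are known causes of neonatal diabetes and of hyperinsulinism, and variation at *G6PC2* is known for its link to fasting glucose.

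None of the 6 genes differed between the genotypes by edgeR at an adjusted p under 0.05. In that fit 0 of the 14619 genes tested passed (0.00%), while 1511 (10.3%) had an unadjusted p under 0.05, among them 1 of the 6, *Cacna1d*. Of all genes 4.15% had such a p and were lower in FXR-/- islets. DESeq2 called 170 of 14052 genes (1.21%) and edgeR with the replicate number as a block called 23 (0.157%), and none of the 6 was among either. The largest estimates of the 6 were those of *G6pc2* and *Cacna1d*, which were lower in the FXR-/- library of all 3 pairs of same-numbered libraries. The labels do not say what a shared number marks, and the share of all genes lower in all 3 pairs was not counted. For *G6pc2* the result depends on the numbering, since male 2 of the knockout (1703 CPM) lay above male 1 of the wild type (1659 CPM). No gene of the 6 had libraries that did not overlap between the genotypes, against 7.37% of all genes that were lower and 8.02% that were higher without overlap. The median log2 fold change of the 6 genes was 0.01, beside 0.01 over all genes tested. It changed sign in 6 of 21 alternatives and ranged from -0.08 to 0.07.

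The libraries held 20629306 to 30139235 counts, and the 6 genes together took 0.291% to 0.420% of them. *Nr1h4* had 333, 274 and 386 counts in the FXR+/+ libraries (female 1, male 1, male 2) and 140, 145 and 138 in the FXR-/- libraries, so that reads of the targeted gene were fewer in every knockout library but not absent. *Ins1* and *Ins2* took 17.5% to 23.9% of counts and 21 acinar genes took 5.13% to 14.3% in FXR+/+ and 7.47% to 14.9% in FXR-/-. Of the acinar markers, 20 of 21 were higher in FXR-/- by estimate, with a summed level of 48839 to 146657 CPM (counts relative to TMM-scaled library size) in FXR+/+ and 69461 to 167239 in FXR-/-. All 6 endothelial markers (437 to 519 CPM summed in FXR+/+, 538 to 867 in FXR-/-), all 6 macrophage markers (103 to 128, and 134 to 158) and all 9 tested smooth muscle, pericyte and stellate markers (174 to 284, and 250 to 327) were also higher by estimate. So were 5 of 6 tested ductal markers (251 to 301, and 266 to 299) and all 5 neural and glial markers (13.7 to 34.2, and 26.5 to 33.4). Both tested lymphocyte markers were lower (20.3 to 40.6, and 14.9 to 25.2). The lower ductal marker, *Krt7*, took most of the ductal sum, at 212 ± 13.1 and 184 ± 15.5 CPM (SD, n = 3). At an unadjusted edgeR p under 0.05, 4 endothelial, 4 macrophage, 3 ductal and 1 stromal marker were higher. So were 2 beta cell markers, and 1 lymphocyte marker was lower. Of all genes, 10.3% had such a p in either direction. Of the endocrine markers, 7 of 10 for beta cells, 5 of 6 for alpha cells and 4 of 5 for delta and PP cells were higher by estimate. Their median log2 fold changes were 0.12, 0.14 and 0.22. The markers listed at 0 in some library were *Cnn1*, *Ms4a1*, *Cd3d* and *Ahsg*. In whole islets, fewer cells of a type and less RNA per cell cannot be told apart.

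By gene counts per kilobase of listed exon, *G6pc2* had the highest level of the 6 genes, at 864 ± 55.8 CPM per kb in FXR+/+ and 659 ± 147 in FXR-/- islets (SD, n = 3 libraries each). *Abcc8* followed with 231 ± 17.8 and 243 ± 9.32, and *Slc2a2* with 201 ± 30.7 and 200 ± 32.3. *Abcc8* was above *Slc2a2* in 6 of 6 libraries, by 1.08 to 1.47 times, but the ranges of these neighbours overlapped across libraries. *Kcnj11* stood at 53.2 ± 2.37 and 53.9 ± 3.43 CPM per kb. The L-type pores were lowest, *Cacna1d* at 16.5 ± 1.89 and 13.3 ± 1.78 and *Cacna1c* at 6.17 ± 0.497 and 6.73 ± 0.463. Apart from *Abcc8* and *Slc2a2*, the levels of neighbours in this order did not overlap in any pair of libraries. This order was the same in both genotypes and with GENCODE exon lengths, under which *Slc2a2* stood at 92.6 rather than 201 CPM per kb in FXR+/+ because GENCODE lists 5569 exonic bases for it against 2570 in the deposited exon counts. It was not the same with exon counts over the same length. *Abcc8* then stood 4th rather than 2nd, at 40.6 ± 8.07 CPM of the exon table per kb in FXR+/+ and 37.4 ± 2.51 in FXR-/-, below *Slc2a2* (222 ± 30.2 and 221 ± 34.0) and *Kcnj11* (156 ± 8.95 and 159 ± 9.54), while *G6pc2* remained highest (1628 ± 114 and 1254 ± 290) and *Cacna1d* and *Cacna1c* lowest. Only 4.82% to 6.52% of the gene counts of *Abcc8* are found in its exon counts, so its place in the order is uncertain.

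The exon counts gave counts at the annotated starts of the genes, and the sequences before the starts whose exon held most of them are shown for that reason. For *G6pc2*, RefSeq places a start at 69211073 of chromosome 2 and a second one at 69219949, both on the plus strand. The first listed exon with a count was that of the second start, with 977, 1132 and 1519 counts in FXR+/+ and 690, 793 and 1386 in FXR-/- (female 1, male 1, male 2), and no exon was listed at the first, so the use of that start was not measured. For *Cacna1d* the exon at the start nearer to the coding exons (exon 49, chr14:30352925-30353486, minus strand) had 55, 40 and 83 counts in FXR+/+ and 60, 21 and 47 in FXR-/-, while that of the farther start (exon 50) had 0 to 2 counts in any library. Among 3 starts of *Cacna1c*, exon 52 (chr6:119107927-119108495, minus strand) had 48, 50 and 68 counts in FXR+/+ and 77, 50 and 56 in FXR-/-, exon 53 had 1 to 13 and exon 47 had 1 to 3. The single start of *Slc2a2* (exon 1) summed to 130 counts in FXR+/+ and 122 in FXR-/-. For *Cacna1c* and *Cacna1d* the same start therefore held most of the start-site counts in both genotypes.

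Promoter sequence, from 250 bases before to 50 after a start, was given in RefSeq (GRCm38.p6) for 4 of the 6 genes. Those of the starts with the counts above are printed 5′ to 3′ on the gene's strand, from chr3:28697653-28697952 (plus) for *Slc2a2*, chr2:69219699-69219998 (plus) for *G6pc2*, chr6:119108446-119108745 (minus) for *Cacna1c* and chr14:30353437-30353736 (minus) for *Cacna1d*. Capitals mark AGGTCA, the half-site bound by many nuclear receptors, in the first pair, and GGGCGG, the GC box, in the second pair, on either strand.
Slc2a2: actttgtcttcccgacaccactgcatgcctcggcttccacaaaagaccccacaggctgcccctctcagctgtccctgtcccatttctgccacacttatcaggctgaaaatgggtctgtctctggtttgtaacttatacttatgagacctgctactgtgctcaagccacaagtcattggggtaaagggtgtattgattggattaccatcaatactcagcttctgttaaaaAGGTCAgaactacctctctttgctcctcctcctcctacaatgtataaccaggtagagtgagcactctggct
G6pc2: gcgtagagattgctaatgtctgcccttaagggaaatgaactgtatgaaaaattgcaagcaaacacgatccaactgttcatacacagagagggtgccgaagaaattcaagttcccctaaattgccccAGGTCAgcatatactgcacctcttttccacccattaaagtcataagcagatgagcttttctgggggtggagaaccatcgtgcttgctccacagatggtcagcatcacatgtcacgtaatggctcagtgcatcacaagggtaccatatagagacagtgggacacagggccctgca
Cacna1c: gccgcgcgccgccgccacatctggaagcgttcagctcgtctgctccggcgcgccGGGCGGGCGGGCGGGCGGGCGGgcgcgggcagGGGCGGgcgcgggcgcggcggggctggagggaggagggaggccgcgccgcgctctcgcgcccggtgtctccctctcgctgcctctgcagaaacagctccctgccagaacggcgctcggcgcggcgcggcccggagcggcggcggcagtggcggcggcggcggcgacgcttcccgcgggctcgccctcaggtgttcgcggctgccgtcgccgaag
Cacna1d: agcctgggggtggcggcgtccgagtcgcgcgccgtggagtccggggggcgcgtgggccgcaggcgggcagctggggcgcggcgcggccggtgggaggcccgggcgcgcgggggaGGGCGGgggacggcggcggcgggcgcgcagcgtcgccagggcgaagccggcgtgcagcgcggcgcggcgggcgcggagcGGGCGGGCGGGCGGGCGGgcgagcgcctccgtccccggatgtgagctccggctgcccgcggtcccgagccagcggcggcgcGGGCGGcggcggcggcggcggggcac
The *Slc2a2* and *G6pc2* windows each held 1 AGGTCA, which begins 21 and 124 bases before the start, and 16.3% of all 32851 RefSeq mouse promoters of this length hold it on either strand. The FXR element IR-1, which is AGGTCA, 1 base and then its reverse complement, matched in none of the 4 windows and in 0.00913% of all promoters. The *G6pc2* window held CAGATG, an E-box, at 2 places and the *Cacna1c* window held it once, on either strand (17.2% of promoters hold it). The *Cacna1c* and *Cacna1d* windows held 6 matches of GGGCGG each, some overlapping one another, and 35.7% of all promoters hold at least 1. Their GC content was 81.3% and 87.3%, against 48.0% for *Slc2a2*, 47.3% for *G6pc2* and a median of 52.7% over all promoters, and they held 57 and 63 CpG against 2, 5 and a median of 7. The glucose-handling pair thus had AT-richer windows with few CpG, and the calcium channel pair had CpG-dense ones. A match of letters is a description and no site.

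*Slc2a2*, the glucose transporter gene, had nearly the same mean level in both genotypes. Its level was 426, 574 and 547 CPM in FXR+/+ (female 1, male 1, male 2) and 514, 429 and 596 CPM in FXR-/-. The 2 groups covered the same range, with the lowest library in FXR+/+ and the highest in FXR-/-, and male 1 was lower in the knockout while female 1 and male 2 were higher. The log2 fold change was 0.0041 (SE 0.15, adjusted p = 0.992), with a 95% interval from -0.35 to 0.36, which is 0.783 to 1.29 times the FXR+/+ level. Within 3 libraries of one genotype the level varied by 15.3% (FXR+/+) and 16.2% (FXR-/-) of its mean, so a change well inside that interval was not detectable here. In GENCODE vM21 *Slc2a2* lies at chr3:28697903-28731359 on the plus strand. Of its 11 listed exons 10 were tested, 6 lower and 4 higher, none with an unadjusted p under 0.05. The last exon took 89.5% to 93.1% of its exon counts.

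*G6pc2*, whose enzyme removes the phosphate from glucose 6-phosphate, had the largest estimate of the 6. Its level was 1814, 1659 and 1884 CPM in FXR+/+ and 1125, 1257 and 1703 CPM in FXR-/-. Female 1 and male 1 of the knockout were below all FXR+/+ libraries, whereas male 2 of the knockout lay above male 1 of the wild type, so the groups overlapped. Within pairs of the same number the FXR-/- level was 0.620, 0.758 and 0.904 times that of FXR+/+. The log2 fold change was -0.40 (SE 0.19, adjusted p = 0.491, 95% interval -0.85 to 0.04), and an exact permutation test of the log2 level over the 20 relabellings gave p = 0.2 (two-sided, smallest possible 0.1). With DESeq2 the adjusted p was 0.187 and with the replicate block 0.290. The spread was also wider in FXR-/- (22.3% of the mean) than in FXR+/+ (6.46%), a difference that was not tested.

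The exons of *G6pc2* (chr2:69211073-69227841 in GENCODE, plus strand) were all on the lower side. All 5 listed exons were tested and lower by estimate, from -0.22 to -0.81 on the log2 scale. Exon 4 (chr2:69222932-69223043) had 205, 167 and 202 counts in FXR+/+ and 113, 75 and 112 in FXR-/-, and exon 5 (chr2:69225812-69225927) had 322, 342 and 451 and then 250, 144 and 252. After scaling, both exons had every FXR-/- library below every FXR+/+ library, which 5.73% of the 26998 tested exons also met, lower in FXR-/-. None of the 5 passed at an adjusted p under 0.05, which 5 of 26998 exons did (0.0185%), and 3 of the 5 had an unadjusted p under 0.05, as had 7.79% of all exons. The last exon held 91.6% to 93.9% of the exon counts, with 3135 ± 262 CPM of the exon table in FXR+/+ and 2410 ± 553 in FXR-/- (SD, n = 3), and the other exons summed to 229 ± 26.1 and 180 ± 47.3. Both parts were thus lower by estimate, and neither separated the groups (exact permutation p = 0.2 and 0.3).

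**Figure D1:**
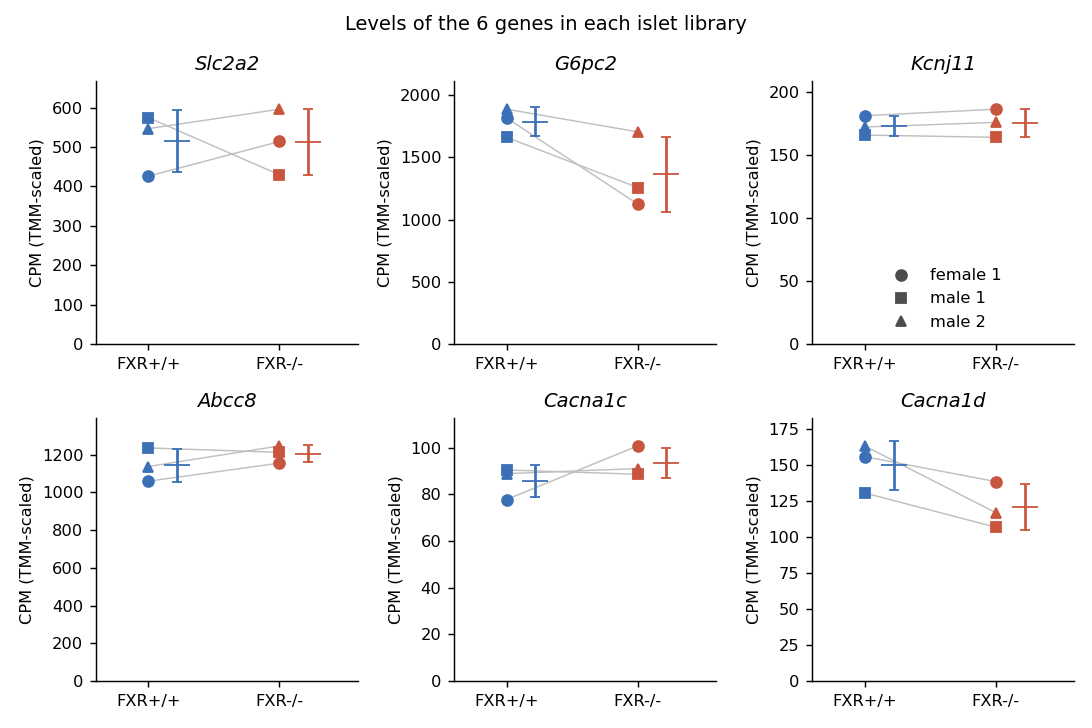
Level of each of the 6 genes in CPM (TMM-scaled, axes from 0) in the FXR+/+ (blue) and FXR-/- (red) libraries. Points are libraries, grey lines join libraries of the same number, and bars show the mean ± SD of 3. *G6pc2* and *Cacna1d* are lower in FXR-/- along all 3 lines with ranges that overlap, while *Kcnj11* stays between 164 and 186 CPM in all 6 libraries. The labels do not say what a shared number marks.

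The KATP channel genes varied within a genotype by 3.83% to 7.72% of their means, and neither passed the test between genotypes. *Kcnj11*, the pore, had 181, 166 and 172 CPM in FXR+/+ and 186, 164 and 176 CPM in FXR-/-. Male 1 was lowest and female 1 highest in both genotypes, and no pair differed by more than 1.03 times. Its log2 fold change was 0.02 (SE 0.08, adjusted p = 0.937), and the 95% interval of -0.16 to 0.20 covers 0.895 to 1.15 times the FXR+/+ level. *Abcc8*, the regulatory subunit that sulfonylurea drugs bind, had 1060, 1236 and 1137 CPM in FXR+/+ and 1155, 1213 and 1246 CPM in FXR-/-. The FXR-/- libraries lay within or just above the FXR+/+ range. Its log2 fold change was 0.08 (SE 0.13, adjusted p = 0.829, 95% interval -0.23 to 0.38).

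*Kcnj11* and *Abcc8* are neighbours on the minus strand of chromosome 7, at chr7:46093953-46100764 and chr7:46104523-46180033 with 3758 bases between them. The ratio of *Abcc8* to *Kcnj11* gene counts was 5.85, 7.45 and 6.60 in FXR+/+ and 6.20, 7.39 and 7.09 in FXR-/-. It was highest in male 1 of both genotypes and differed by 0.06 on the log2 scale between them (exact permutation p = 0.7, adjusted over 3 ratios 0.7). That difference was -0.03 without female 1 of the wild type and 0.15 without male 1 of the wild type, so it had no stable sign. By gene counts per kilobase, *Abcc8* was 3.84 to 4.89 times *Kcnj11*, but by exon counts per kilobase it was 0.192 to 0.322 times *Kcnj11*, the opposite direction. The share of the gene counts found in the exon counts differed widely between the pair, and over all genes it was 32.3% to 36.6%. Exon counts came to 98.7% to 99.2% of the gene counts for *Kcnj11*, nearly all in its large coding exon, but to 4.82% to 6.52% for *Abcc8*, whose 39 listed exons are short. Of 29 tested *Abcc8* exons, 22 were lower and 7 higher by estimate, with 1 at an unadjusted p under 0.05 and none at an adjusted one. When exon counts were summed per gene the *Abcc8* estimate was -0.09 instead of 0.08, and the log2 difference of the ratio was -0.12. The rule by which reads were assigned to exons is not given in the sources used here.

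The estimates of the L-type calcium channel pores had opposite signs, and neither passed the test. *Cacna1c* had 77.7, 90.4 and 88.8 CPM in FXR+/+ and 101, 88.6 and 91.0 CPM in FXR-/-. The female pair accounted for most of its difference, with the FXR-/- library 1.30 times the FXR+/+ one, and the male pairs stood at 0.980 and 1.02 times. The log2 fold change was 0.13 (SE 0.09, adjusted p = 0.613, 95% interval -0.09 to 0.35) and was 0.0026 in males alone. *Cacna1c* lies at chr6:118587240-119196418 on the minus strand. Its last exon (exon 1 of the table, chr6:118587240-118594194) held 83.1% to 86.1% of the exon counts, and its levels were 111, 116 and 121 CPM of the exon table in FXR+/+ and 131, 124 and 126 in FXR-/-. The FXR-/- libraries were all above the FXR+/+ ones there, as for 6.42% of tested exons (exact permutation p = 0.1, the smallest possible), with an adjusted p by edgeR of 0.758.

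*Cacna1d* was lower in FXR-/- by estimate. Its level was 156, 131 and 163 CPM in FXR+/+ and 139, 107 and 117 CPM in FXR-/-. Both male FXR-/- libraries were below every FXR+/+ library, female 1 of the knockout lay above male 1 of the wild type, and the pairs stood at 0.889, 0.818 and 0.716 times. The log2 fold change was -0.32 (SE 0.11, adjusted p = 0.445), with a 95% interval of -0.57 to -0.06 that is not adjusted for the number of genes and covers 0.672 to 0.956 times the FXR+/+ level. The exact permutation p was 0.2. The adjusted p was 0.179 with the replicate block and 0.235 with DESeq2. Without male 2 of the wild type the estimate was -0.20, over 1.5 times smaller. Ranked by p-value it was gene 674 of 14619.

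Of 10 tested *Cacna1d* exons, 8 were lower and 2 higher by estimate, with none at an unadjusted p under 0.05. The last exon, exon 1 of the table (chr14:30039941-30042366), had 974, 645 and 1394 counts in FXR+/+ and 859, 512 and 765 in FXR-/-. It held 69.2% to 77.8% of the exon counts. It shares 587 bases with exons of *Chdh*, a choline dehydrogenase gene on the opposite strand. Reads from the 2 genes cannot be told apart there without strand. *Chdh* was at 2.05 to 5.18 CPM, with a log2 fold change of 0.56 by edgeR (adjusted p = 0.502). Its part in the counts of this last exon was not tested. The other 46 listed exons together had 278, 287 and 425 counts in FXR+/+ and 314, 208 and 264 in FXR-/-. After scaling they stood at 39.0 ± 3.10 and 34.5 ± 2.95 CPM of the exon table (SD, n = 3), with female 1 at 1.06 times and the males at 0.784 and 0.832 times (exact permutation p = 0.2).

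**Figure D2:**
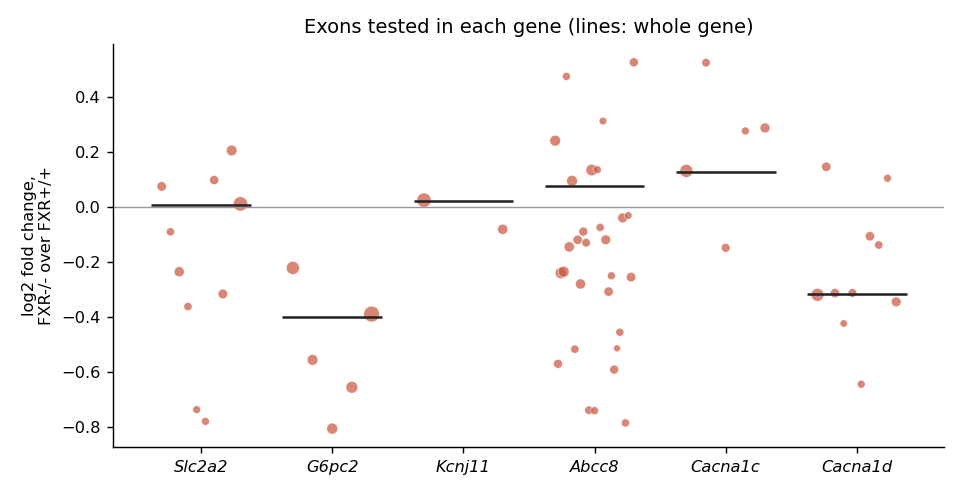
Log2 fold change (FXR-/- over FXR+/+) of every tested exon of the 6 genes. Each point is an exon in genomic order from left to right, larger points have more counts, and the black lines give the whole-gene estimate. All 5 exons of *G6pc2* and 8 of 10 of *Cacna1d* lie below 0, while *Abcc8* exons spread from -0.79 to 0.52.

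The ratio of *Cacna1d* to *Cacna1c* counts, which no scaling affects, was 2.01, 1.45 and 1.84 in FXR+/+ and 1.38, 1.21 and 1.29 in FXR-/-. Every FXR+/+ library was above every FXR-/- library. On the log2 scale the difference was -0.44, from 0.81 ± 0.24 in FXR+/+ to 0.37 ± 0.09 in FXR-/- (SD, n = 3), with an exact permutation p of 0.1, the smallest that 3 against 3 can reach, and 0.3 after adjustment over 3 ratios. It lay between -0.58 and -0.34 when each library was left out in turn and was -0.41 with summed exon counts. The ratio of *Slc2a2* to *G6pc2* was 0.235, 0.346 and 0.290 in FXR+/+ and 0.457, 0.342 and 0.350 in FXR-/-. These overlapped at male 1, and the log2 difference of 0.40 had an exact permutation p of 0.2 (adjusted 0.3). Without female 1 of the wild type it was 0.26 and without female 1 of the knockout 0.27.

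**Figure D3:**
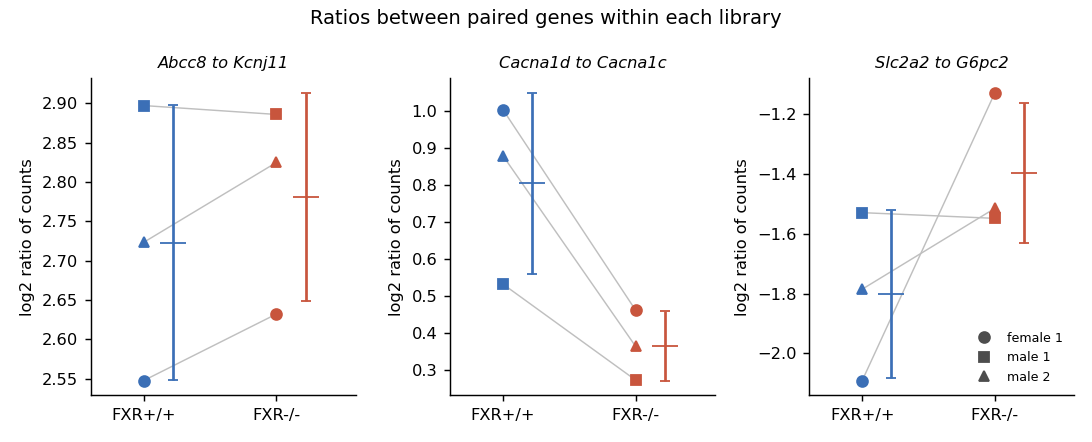
Log2 ratio of the counts of paired genes in each library (points), with grey lines between libraries of the same number and bars for the mean ± SD of 3. The axes do not start at 0. *Cacna1d* to *Cacna1c* is lower in FXR-/- in all 3 pairs without overlap, while the other 2 ratios overlap between genotypes.

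The samples were of both sexes, with 1 female library per genotype. The difference of the genotype effect between the sexes was tested as an interaction in edgeR, and it ranged over the 6 genes from -0.43 for *G6pc2* to 0.40 for *Slc2a2* on the log2 scale, female minus male. With 1 female library per genotype, the spread in this test comes from the 4 male libraries and the prior alone, so a miss of the threshold says little. For *Cacna1c* it was 0.37 (SE 0.16). No gene of the 6 and none of the 14619 passed at an adjusted p under 0.05 (0.00%), with an adjusted p of 1.00 for each of the 6, and 1.48% of genes but none of the 6 had an unadjusted p under 0.05. In males alone the estimate was -0.26 for *G6pc2*, over 1.5 times smaller than with the females, and -0.39 for *Cacna1d*.

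With a term for the summed acinar RNA the estimate of *G6pc2* was -0.31 and that of *Cacna1d* -0.21, the latter over 1.5 times smaller than without it. With libraries scaled to the sum of 8 beta cell markers other than insulin they were -0.34 and -0.24. That scaling moved the median of all genes to 0.077, from 0.0084 in the main fit. *Iapp*, 1 of the 8, made up most of the sum, with 12724 to 16818 CPM where the sum was 16899 to 21380 CPM. Under these fits the adjusted p was 0.673 and 0.582 with the acinar term and 0.967 for both with the scaling. The part of the endothelial, macrophage, stromal, ductal and neural markers in these values was not tested.

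**Figure D4:**
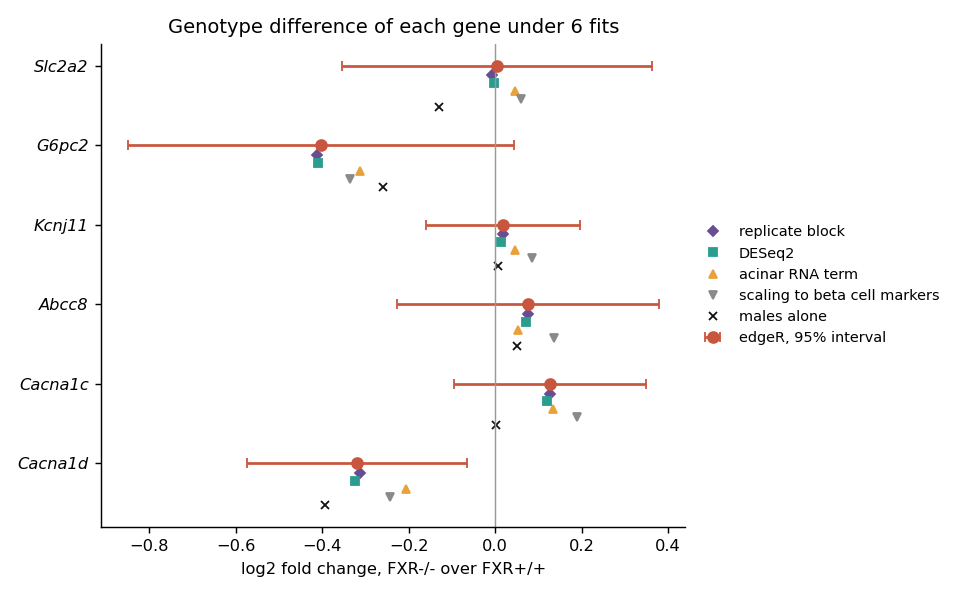
Log2 fold change (FXR-/- over FXR+/+) of each gene by edgeR with its 95% interval (red), and the estimates with the replicate block, by DESeq2, with an acinar RNA term, with scaling to beta cell markers and in males alone. *G6pc2* and *Cacna1d* stay below 0 in every fit shown, and the interval of *Cacna1d* alone does not reach 0.

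Around the 6 genes, 75 further genes were listed, of which 74 were counted and 72 tested. They were genes of the triggering pathway and 11 beta-cell transcription factors, which are not steps of that pathway. None passed at an adjusted p under 0.05. At an unadjusted p under 0.05 there were 4 that were higher and 6 that were lower in FXR-/-, against 10.3% of all genes in either direction, and without overlap between the groups there were 6 higher and 8 lower, against 8.02% and 7.37%. The median log2 fold change of the tested genes was 0.04. Of these counts, the transcription factors gave 2 higher and 2 lower at an unadjusted p under 0.05. Without overlap they gave 1 higher and 3 lower.

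Glucose entry and phosphorylation came first in the pathway. The 4 other glucose transporter genes listed (*Slc2a1*, *Slc2a3*, *Slc2a4* and *Slc2a8*) were higher by estimate (median 0.45), none with an unadjusted p under 0.05. Further members of this family were not listed, and the share of all genes higher by estimate was not counted. *Slc2a3* was low, at 3.95 to 8.99 CPM over the 6 libraries. The largest estimate was that of *Slc2a4* (0.73), at only 0.198 to 0.799 CPM over the 6 libraries. *Slc2a1*, which encodes the widely expressed GLUT1, had 12.3, 12.3 and 14.4 CPM in FXR+/+ and 12.7, 21.9 and 15.4 CPM in FXR-/- (log2 fold change 0.34, SE 0.17, adjusted p = 0.505), far below *Slc2a2* in CPM. *Slc37a4* encodes the transporter that brings glucose 6-phosphate to the phosphatase in the endoplasmic reticulum. It had 105, 90.3 and 104 CPM in FXR+/+ and 72.3, 85.1 and 79.5 CPM in FXR-/-, so that its groups did not overlap (log2 fold change -0.34, SE 0.10, adjusted p = 0.418). *G6pc3*, the ubiquitous phosphatase, lay on the other side with 32.0, 31.6 and 33.7 CPM in FXR+/+ and 32.8, 42.0 and 39.6 CPM in FXR-/- (log2 fold change 0.23, SE 0.09, adjusted p = 0.478). *G6pc*, the liver enzyme, was too low to test, at no more than 0.105 CPM in the libraries. Of 7 tested mitochondrial coupling genes, 4 were higher and 3 lower, between -0.23 and 0.15.

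Among the channels, the other KATP subunits were low. *Kcnj8* had 1.01 to 1.82 CPM and *Abcc9* 6.50 to 8.84 CPM over the 6 libraries, and their log2 fold changes were 0.08 and 0.13 (adjusted p = 0.935 and 0.781). *Cacna1a*, the P/Q-type calcium pore, had 95.9, 108 and 89.0 CPM in FXR+/+ and 115, 104 and 104 CPM in FXR-/- (log2 fold change 0.14, SE 0.10, adjusted p = 0.591), while the R-type pore *Cacna1e* was at 0.631 to 1.49 CPM. *Cacna1g*, a T-type pore that opens at low voltage, had 2.22, 1.93 and 0.979 CPM in FXR+/+ and 4.25, 3.73 and 2.40 CPM in FXR-/-. Its groups did not overlap, with a log2 fold change of 1.05 (SE 0.31, adjusted p = 0.426) at this low level.

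*Cacna2d1* encodes the alpha2-delta subunit that brings calcium channel pores to the membrane. It had 171, 159 and 183 CPM in FXR+/+ and 157, 118 and 133 CPM in FXR-/-, every FXR-/- library below every FXR+/+ library, with a log2 fold change of -0.34 (SE 0.11, adjusted p = 0.430). The cytoplasmic beta subunits stood apart from it, *Cacnb2* with a log2 fold change of -0.06 (adjusted p = 0.827) and *Cacnb3* with 0.18 (adjusted p = 0.483, groups higher without overlap). Over all 9 auxiliary subunits 4 were higher and 5 lower. All 5 listed sodium channel genes, which shape the upstroke of the action potential, were lower by estimate, from -0.12 to -0.32. *Scn9a*, which encodes NaV1.7, had 54.9, 51.8 and 52.6 CPM in FXR+/+ and 55.5, 36.4 and 41.0 CPM in FXR-/- (log2 fold change -0.28, SE 0.11, adjusted p = 0.466), lower in both males and not in the female. The 12 potassium channels that repolarize the cell were divided into 7 higher and 5 lower, with a median of 0.01.

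**Figure D5:**
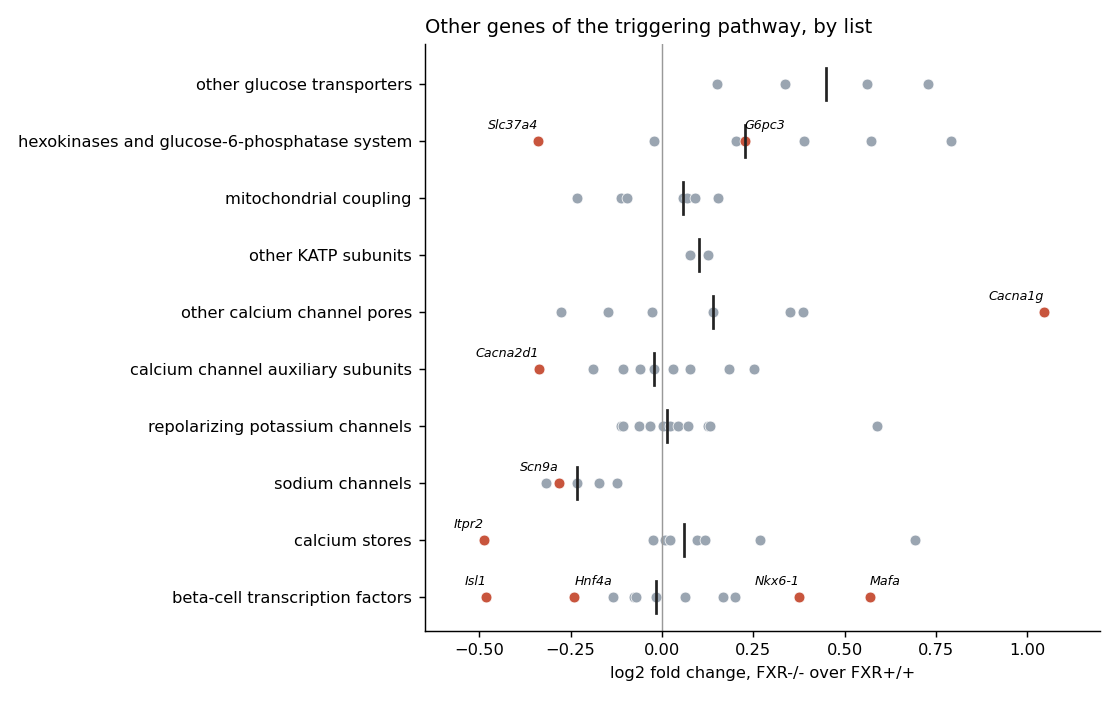
Log2 fold change (FXR-/- over FXR+/+) of the 72 tested genes of the pathway and beta-cell transcription factor lists. Red points, which are named, have an unadjusted p under 0.05, grey points do not, and black ticks are the list medians. The 5 listed sodium channels lie below 0 and the 4 other listed glucose transporters above it, and no gene passed at an adjusted p under 0.05.

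Of 8 genes of the calcium stores, 6 were higher and 2 lower by estimate. *Itpr2*, an inositol trisphosphate receptor that releases calcium from the endoplasmic reticulum, had 34.2, 41.1 and 36.0 CPM in FXR+/+ and 25.5, 27.5 and 26.3 CPM in FXR-/- (log2 fold change -0.49, SE 0.09, adjusted p = 0.225), without overlap. The 11 beta-cell transcription factors were divided into 5 higher and 6 lower. *Mafa*, an activator of the insulin gene, had 314, 317 and 324 CPM in FXR+/+ and 446, 477 and 495 CPM in FXR-/-, a log2 fold change of 0.57 (SE 0.09, adjusted p = 0.217) with a wide gap between the groups. *Isl1*, a factor of endocrine cells, had 147, 157 and 139 CPM in FXR+/+ and 117, 93.6 and 108 CPM in FXR-/- (log2 fold change -0.48, SE 0.10, adjusted p = 0.266), again without overlap. *Nkx6-1* was at 0.37 (SE 0.14) and *Hnf4a* at -0.24 (SE 0.09), both with an adjusted p of 0.457, while *Pdx1*, a factor known to act on *Slc2a2*, was at -0.02 (SE 0.15, adjusted p = 0.973).

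The 6 genes did not vary together across the libraries. Pearson correlations of their log2 CPM over the 6 libraries ran from -0.78 (*Abcc8* and *Cacna1d*) to 0.58 (*Slc2a2* and *Abcc8*). The genes given here were among the 3 most like each of them by this measure, out of 10873 genes with a mean of at least 5 CPM, and no gene was shared between members. For *Slc2a2* they were *Ccdc163* (r = 0.986), *Snhg3* and *Nup210*, and for *G6pc2* they were *Fam189a1* (0.994), *Prdx3* and *Ano6*. The nearest to *Kcnj11* were *Fchsd2* (0.991), *Sp4* and *Tbc1d30*, and to *Abcc8* they were *Stmn1* (0.993), *Tbx2* and *Pik3c2b*. *Cacna1c* was most like *Psmg3* (0.955) and *Limd1*, and *Cacna1d* was most like *Nap1l1* (0.998), *Atl2* and *Rb1cc1*. These values describe 6 points that share library depth and composition, with the best of many genes chosen.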

How the data were processed

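Islet RNA-seq of 3 FXR+/+ and 3 FXR-/- libraries was re-analysed, with genotype, sex and age from the labels. The authors deposited whole-number counts per gene and counts per exon, without normalization. Alignment was with HISAT per the submitters' processing notes, its version and the counting rule not given in the sources used here, and the library protocol describes no marking of strand. The authors' DESeq comparison, which holds their fold changes and p-values, was not used. Exon positions are those of GRCm38.

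The test was edgeR 4.0.16 under R 4.3.3 (filterByExpr by genotype, minimum count 10, minimum total 15, TMM, glmQLFit, glmQLFTest), modelling sex and genotype. The p-values were adjusted by Benjamini and Hochberg over all genes tested, with a threshold of 0.05. Standard errors came from the F statistic. Exons were tested alike. The scripts were tested on simulated data. Permutation tests were two-sided and used log2 CPM with 0.01 added. The alternatives were other scalings, filters and models, DESeq2 1.42.0, and each library left out in turn, and the robust prior and the levels from exon counts were added after the values were seen. Deviations of same-numbered libraries correlated at 0.378, 0.448 and 0.351 (female 1, male 1, male 2), and those of differently numbered libraries at -0.389 to 0.0935. Male 1 also had the highest share of acinar counts in both genotypes (14.3% and 14.9%), and its part in these correlations was not tested. The numbers were taken to pair the libraries in the pair values and the replicate block, but not in the main test. The labels do not say what a shared number marks, and female 1 is the only female library of each genotype. No pair of libraries agreed within sampling noise. Named pathway genes were those with an unadjusted p under 0.05 and the paralogues and partners of the 6 genes. *Pdx1*, *Chdh* and *G6pc* were named besides, and a few genes that these rules would name are not reported here. The members and lists were chosen with earlier results of these data known.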

Additional observations from a re-analysis of the deposited data

How the results depend on the processing

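None of the 6 genes had an adjusted p under 0.05 under any of the 21 alternatives. *G6pc2* (-0.58 to -0.26), *Cacna1d* (-0.42 to -0.20) and *Cacna1c* (0.0026 to 0.19) kept their direction in all 21. The replicate block changed no member's call, with 23 genes of all called against 0 without it, DESeq2 called 170, the acinar term 7, the scaling to beta cell markers 11 and the summed exon counts 4, and the causes were not tested.

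The estimate of *Slc2a2*, near 0, changed sign to -0.0074 without sex, -0.0075 with the replicate block, -0.0020 with the size factors of DESeq2, -0.0020 by DESeq2, -0.086 with library size alone, -0.0045 without the 20 most abundant genes and -0.13 in males alone, and ranged from -0.13 to 0.16 when each library was left out. Library size alone, which moved the median of all genes to -0.087, also gave -0.076 for *Kcnj11* and -0.017 for *Abcc8*, and relative to that median both were above it. *Kcnj11* ranged from -0.0082 to 0.046 with each library left out. Summed exon counts gave -0.091 for *Abcc8* and -0.12 for the log2 ratio of *Abcc8* to *Kcnj11*. The cause was not tested. With a female library left out the fit rests on the males, since the other female library is then taken up by the term for sex.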
